A study of Mus musculus with 138 samples.

Results

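Secreted Wnt antagonists are proteins that leave the cell and restrain Wnt signalling outside it. The 10 genes described here, Wif1, Sostdc1, Sost, Dkk1, Dkk2, Dkk3, Sfrp1, Sfrp2, Frzb and Notum, were chosen by name from 55487 genes counted in every library. Expression was measured by RNA sequencing in wild-type C57BL/6J mouse embryos of 2 ages, E16.5 and E18.5, which carried no transgene or treatment. Laser capture from frozen sections gave the suture mesenchyme (SM) and the osteogenic fronts (OF) of 4 sutures, the coronal, frontal, sagittal and lambdoid. The frontal OF flanks the frontal suture and the front side of the coronal suture, the parietal OF lies at the coronal, lambdoid and sagittal sutures, and the interparietal OF at the lambdoid suture. Each of the 20 groups of suture, region and age held 5 embryos, which gave 100 first libraries from 40 embryos. SM and OF with the same replicate number within a suture and age carried the same litter label and were treated as 1 embryo. The ages came from different litters, so age and litter cannot be told apart. Droplet-based single-cell RNA sequencing of dissected coronal sutures, with embryos of both sexes pooled, gave 2 libraries per age, which was taken from the labels, since the names of all 4 deposited matrices carry the same age code.

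Wnt proteins bind Frizzled receptors together with the co-receptors Lrp5 and Lrp6, and the resulting signal stabilises β-catenin, which works with Tcf/Lef factors on target genes. In the skull, as in other bones, this signal favours the formation of osteoblasts, and its strength at the bone margins is held in check by secreted inhibitors. Sfrp1, Sfrp2 and Frzb (also called Sfrp3) carry a Frizzled-like domain and bind Wnts, Wif1 binds Wnts through a domain of its own, and Notum is an enzyme that removes the lipid that Wnts need for binding. Dkk1, Dkk2, Sost and Sostdc1 act on the Lrp co-receptors, whereas Dkk3 is a more distant relative whose effect on Wnt signalling varies with context.

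On mm10, the members lie on 8 chromosomes, with Dkk2 and Sfrp2 both on chromosome 3 and Sost and Notum both on chromosome 11. Wif1 spans chr10:121033960-121100650 on the plus strand, Dkk1 chr19:30545863-30549665 on the minus strand, Frzb chr2:80411970-80447625 on the minus strand and Sfrp2 chr3:83766321-83774316 on the plus strand. Reads were counted without regard to strand, and 347 of the 2153 exon bases of Sfrp2 (16.1%) overlap exons of the antisense gene Gm26771, while exons of Notum overlap those of Notumos (29.4%) and Myadml2os (8.72%). Reads of Sfrp2 and Notum in these stretches cannot be told apart from reads of the antisense genes. No other member shared exon bases with another gene.

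RefSeq promoter entries (GRCm38.p6) existed for 6 of the 10 members, and the bases upstream of the annotated gene are shown for the genes whose levels separated OF from SM most clearly. Dkk1 (chr19:30549666-30549746, minus strand), Wif1 (chr10:121033754-121033959, plus strand) and Frzb (chr2:80447626-80447646, minus strand) were higher in the OF, and Sfrp2 (chr3:83766071-83766320, plus strand) was higher in the SM. Capitals mark the match to the Runx core motif TGTGGT on the other strand.
Dkk1: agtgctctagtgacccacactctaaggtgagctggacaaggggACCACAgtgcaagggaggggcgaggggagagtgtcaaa
Frzb: tgcgttgagaccgtttctccc
Wif1: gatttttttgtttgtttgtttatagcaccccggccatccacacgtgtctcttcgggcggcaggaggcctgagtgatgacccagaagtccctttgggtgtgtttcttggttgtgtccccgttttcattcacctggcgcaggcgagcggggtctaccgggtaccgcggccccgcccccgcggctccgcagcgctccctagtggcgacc
Sfrp2: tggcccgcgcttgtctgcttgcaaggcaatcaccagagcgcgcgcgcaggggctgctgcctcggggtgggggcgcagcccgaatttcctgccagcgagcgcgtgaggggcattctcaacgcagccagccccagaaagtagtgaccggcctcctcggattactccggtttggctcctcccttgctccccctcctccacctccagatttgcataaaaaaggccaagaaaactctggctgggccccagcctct
The Tcf/Lef motifs ATCAAAG and TTCAAAG and the Runx core TGTGGT, searched on both strands, had 1 match among these windows and those of Sost and Dkk2, the Runx core of Dkk1. Over 250 bases upstream, 7.48% of 32851 RefSeq promoters held either Tcf/Lef motif and 14.05% held the Runx core. The windows of Dkk1, Wif1 and Frzb were shorter than that, so these shares are not matched to them in length.

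Total counts of the first libraries ranged from 7305627 to 34518477 with a median of 14244957. The captured regions carried the markers of their labels: the summed CPM of 10 osteoblast markers was lower in SM than in OF in 60 of 60 embryo pairs, ranging from 10.5 to 1318 in SM and from 2378 to 25100 in OF. The summed CPM of 10 suture mesenchyme markers was higher in SM in 56 of 60 pairs, that of 9 ectocranial mesenchyme markers in 54, of 8 dura mater markers in 51 and of 8 hypodermis markers in 42. Of the suture mesenchyme markers, 7 had a higher median in SM and 3 in OF, among them Hhip, which ranged from 0.583 to 663 CPM in SM (median 16.6) and from 55.1 to 380 CPM in OF (median 129). The 60 pairs came from 40 embryos, since each coronal and lambdoid SM library was paired with both of its fronts. In captured tissue, fewer cells of a type and less RNA per cell cannot be told apart.

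Across the 100 first libraries and divided by exon length, Sfrp2 had the highest mean level (437 CPM per kb), followed by Dkk3 (93.3), Wif1 (15.5), Dkk1 (13.9), Sfrp1 (7.35), Dkk2 (6.20), Sostdc1 (3.21), Frzb (1.65), Notum (0.264) and Sost (0.0427). Wif1, Dkk2, Dkk3, Sfrp1 and Sfrp2 had counts in all 100 libraries, Dkk1 and Sostdc1 in 99, Frzb in 93, Notum in 80 and Sost in 19. A filter of at least 1 CPM in more than 10% of the libraries kept 19768 genes, among them every member except Sost. All levels below are CPM scaled by the TMM method, and all differences are log2 differences fitted by edgeR's quasi-likelihood model with the embryo as a block, except between ages.

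SM was compared with each OF of the same suture and age in 12 comparisons, in which the coronal and lambdoid SM each served against a pair of fronts. The members fell into a group that was higher in the OF, led by Dkk1, Frzb and Wif1, and a group that was higher in the SM, Sfrp2 and Dkk3. Over 108 tests of 9 members, 45 (41.7%) were called higher in the OF and 30 (27.8%) higher in the SM at an adjusted p below 0.05, against 10.8% and 8.15% of all tests over 19768 genes in the same directions. Per comparison, 3.53% to 33.3% of all genes were called, and the median log2 difference of all genes lay between -0.01 and 0.10. Every member was called in at least 3 comparisons. A mean difference was also tested over the 8 sets of suture and age, with the OFs of a set averaged first. In it 8 of the 9 members differed, 5 higher in the OF and 3 higher in the SM, where 27.4% and 27.5% of all genes were called. Dkk2 narrowly missed the threshold (0.25, edgeR adjusted p = 0.0504).

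**Figure D1:**
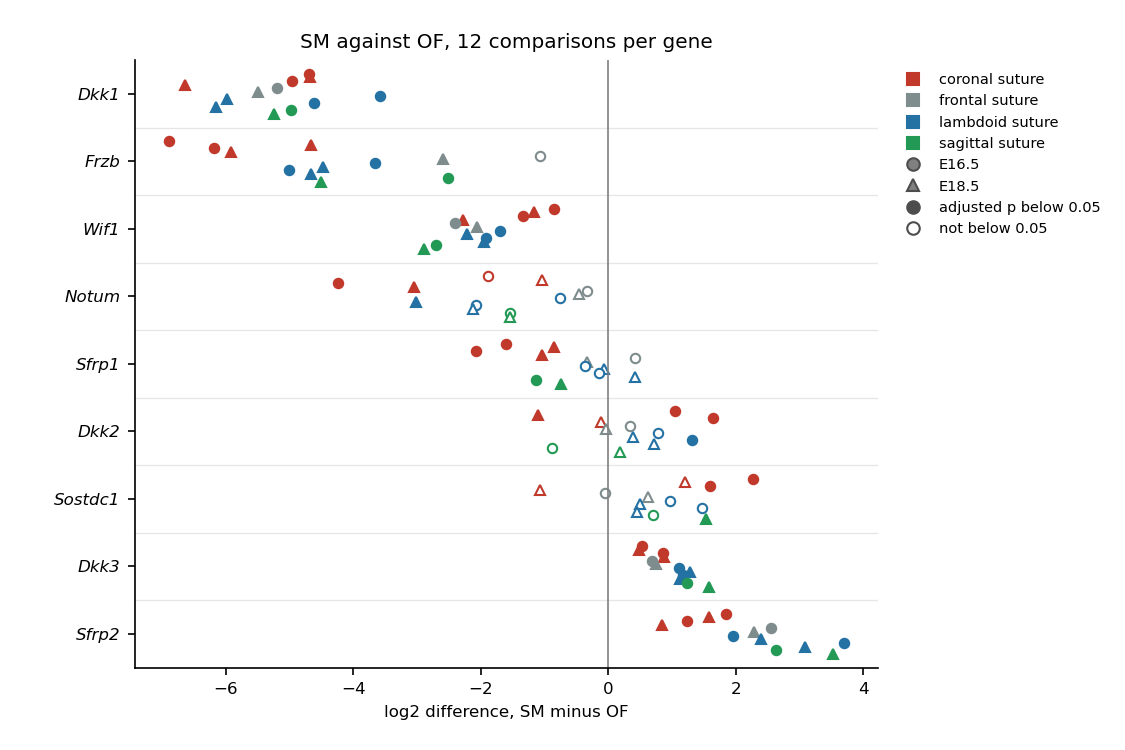
Fitted log2 difference between SM and OF (horizontal axis, SM minus OF) for each of the 9 tested members (vertical axis), 1 symbol per comparison coloured by suture, as a circle for E16.5 and a triangle for E18.5, filled where the adjusted p was below 0.05. Dkk1, Frzb and Wif1 lie left of 0 in all 12 comparisons, Sfrp2 and Dkk3 right of 0 in all 12, and Dkk2 lies on both sides.

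Dkk1, which blocks the Lrp5 and Lrp6 co-receptors, was between 0 and 10.6 CPM in the 40 SM libraries (median 1.54) and between 2.87 and 160 CPM in the 60 OF libraries (median 48.9). In the sagittal suture at E16.5, the SM libraries of embryos 1 to 5 had 3.91, 3.99, 2.24, 2.52 and 2.25 CPM and the OF libraries 103, 109, 82.5, 86.1 and 81.3 CPM. SM and OF libraries did not overlap in any of the 12 comparisons, and the OF was higher in 60 of 60 embryo pairs. The log2 differences ranged from -6.64 in the coronal suture against the parietal OF at E18.5 to -3.58 in the lambdoid suture against the interparietal OF at E16.5, that is 99.9-fold to 11.9-fold, all with an adjusted p of at most 1.33e-09 (edgeR quasi-likelihood test, Benjamini-Hochberg). The coronal values depended on which libraries were used. A second set of libraries, whose making the labels do not describe, exists for 18 coronal samples. In coronal SM at E18.5, embryos 1, 3 and 4 had 0.09, 0.28 and 0.43 CPM of Dkk1 in the first libraries and 7.38, 2.33 and 12.6 CPM in the second. With the second libraries in place of the first, the coronal difference at E18.5 was -1.69 in place of -4.68 against the frontal OF (adjusted p = 0.0187) and -3.08 in place of -6.64 against the parietal OF (adjusted p = 1.09e-06). At E16.5 they were -3.83 in place of -4.69 and -4.25 in place of -4.96, both called. Why the libraries differed was not tested.

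Frzb was higher in the OF in 60 of 60 embryo pairs and was called in 11 of 12 comparisons, by 5.73-fold to 119-fold. Coronal SM had almost no Frzb. At E16.5 its libraries had 0, 0.0428, 0.374, 0.107 and 0 CPM, against 16.1, 2.35, 38.7, 8.33 and 4.45 CPM in the coronal frontal OF of the same embryos, and the large coronal folds rest on 28 counts over the 10 coronal SM libraries. The coronal differences were smaller with the second libraries at E16.5, -4.48 in place of -6.89 against the frontal OF and -4.28 in place of -6.19 against the parietal OF, and remained called. The exception was the frontal suture at E16.5, where SM had 2.14, 12.9, 3.42, 6.10 and 5.03 CPM and the frontal OF 10.7, 15.3, 8.49, 17.1 and 5.05 CPM. There the ranges overlapped and the difference of -1.06 missed the threshold (SE 0.59, adjusted p = 0.363). Without replicate 1 the call in the sagittal suture at E16.5 was also lost (log2 difference -1.99 in place of -2.52, adjusted p = 0.0553).

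Wif1 was higher in the OF in all 12 comparisons and in 60 of 60 embryo pairs, by 1.80-fold to 7.43-fold. Outside the coronal suture, SM libraries ranged from 4.00 to 18.9 CPM (median 9.12) and OF libraries from 20.9 to 79.1 CPM (median 47.0), with no overlap between the kinds of region. The largest difference was in the sagittal suture at E18.5, where SM had 10.9, 10.8, 8.89, 7.61 and 4.00 CPM and the parietal OF 54.5, 79.1, 56.5, 56.0 and 56.1 CPM (log2 difference -2.89, SE 0.22, adjusted p = 1.96e-16). The smallest was between coronal SM and the frontal OF at E16.5, where SM had 34.7, 32.7, 25.2, 29.1 and 48.1 CPM and the OF 71.0, 62.5, 39.0, 50.1 and 82.9 CPM (-0.85, SE 0.20, adjusted p = 0.00111). These ranges overlapped, although every embryo had more Wif1 in the OF. Fitted on the libraries of that suture and age alone, this call was lost (-0.87, adjusted p = 0.0778).

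**Figure D2:**
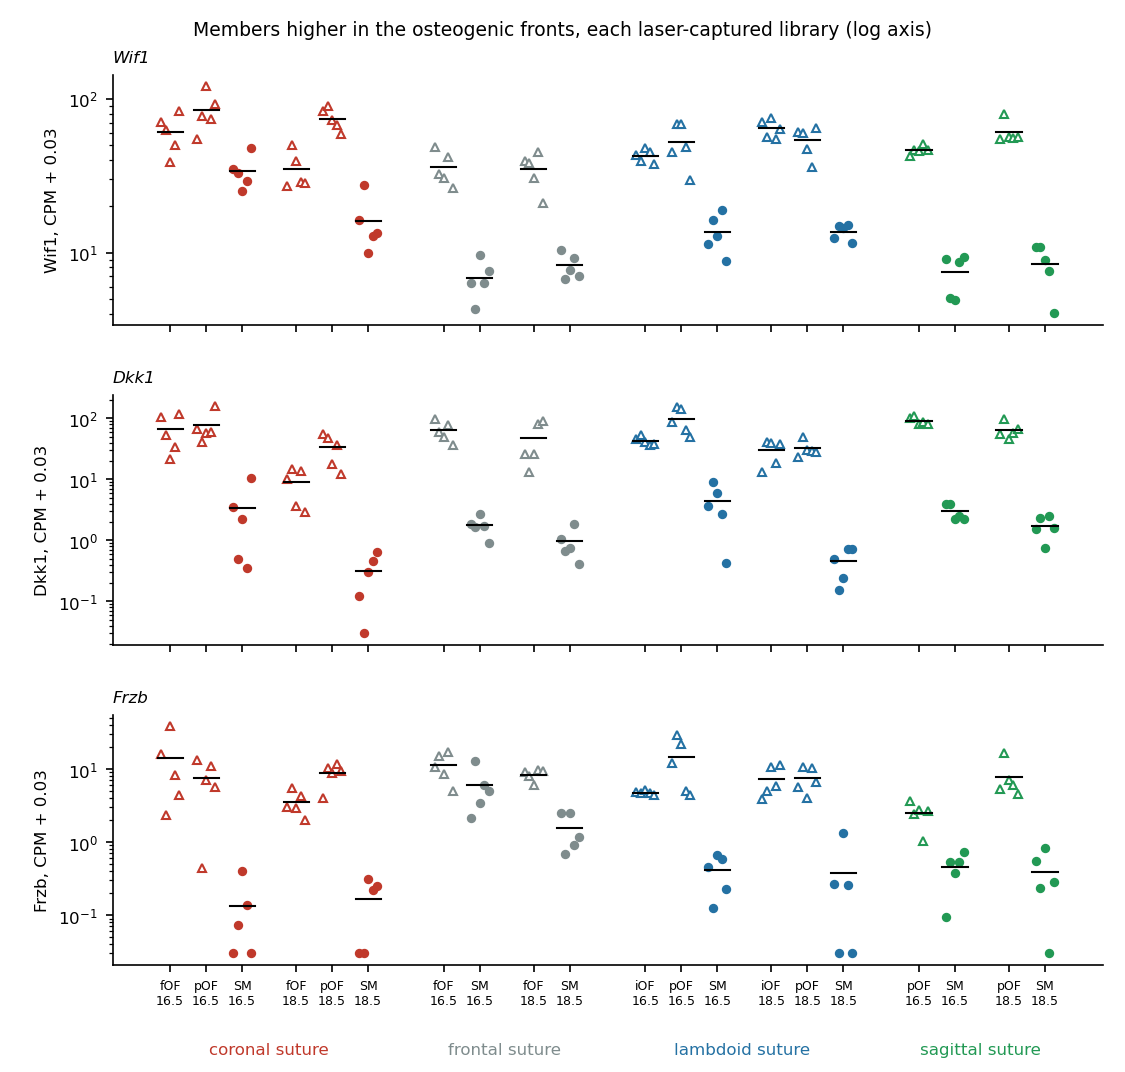
Levels of Wif1, Dkk1 and Frzb (CPM plus 0.03, log axis) in each of the 100 first libraries, by suture, age and region, with SM as filled circles, OF as open triangles and a bar at the group mean. The mean of SM lies below that of each OF for all 3 genes in every suture and age, although single libraries overlap for Frzb in the frontal suture at E16.5 and for Wif1 in the coronal suture, Wif1 is highest among SM groups in coronal SM, and Frzb is near 0 in coronal SM.

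Sfrp1 was higher in the OF where it differed, but less widely, with the OF higher in 48 of 60 embryo pairs and SM in 12. Among the alternative analyses, calls higher in the OF ranged from 3 to 6 and calls higher in SM from 0 to 1. It was called in 6 of 12 comparisons, all 4 of the coronal and both of the sagittal suture, by 1.66-fold to 4.22-fold, and in none of the frontal or lambdoid comparisons. In the coronal suture at E16.5, SM had 25.1, 10.9, 27.0, 14.9 and 14.9 CPM and the parietal OF 81.1, 73.1, 52.4, 66.0 and 93.3 CPM, without overlap (log2 difference -2.08, SE 0.25, adjusted p = 1.63e-09). At E18.5 the coronal differences were smaller, -0.84 against the frontal OF (adjusted p = 0.0386) and -1.04 against the parietal OF (adjusted p = 0.00154). The former call was lost when any 1 replicate was left out (adjusted p from 0.0619 to 0.192) and in a fit of that suture and age alone (adjusted p = 0.151), and it was also lost with voom, median-ratio size factors, scaling to total counts and no replicate block (adjusted p from 0.0524 to 0.142), and the latter without replicate 1 (-0.73, adjusted p = 0.0802). The sagittal call at E18.5 (-0.73, adjusted p = 0.022) was lost without replicate 1, 3 or 5 (adjusted p from 0.0602 to 0.0901).

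Notum was low everywhere, at most 3.68 CPM, with 866 counts over the 100 libraries. The OF was higher in 46 of 60 embryo pairs and SM in 7. It was called higher in the OF in 3 comparisons. In the lambdoid suture at E18.5, SM had 0, 0.735, 0, 0.580 and 0.229 CPM and the interparietal OF 0.913, 1.22, 2.62, 2.52 and 3.68 CPM, without overlap (log2 difference -3.01, SE 0.88, adjusted p = 0.00884). The other calls were coronal SM against the parietal OF at E16.5 (-4.24, adjusted p = 0.000758), with 7 counts in 1 of 5 SM libraries, and at E18.5 (-3.04, adjusted p = 0.0128). Calls at E18.5 were lost without replicate 3 or 5 in the lambdoid suture (adjusted p = 0.0818 and 0.0609) and without replicate 2, 3 or 5 in the coronal suture (adjusted p = 0.0702, 0.0547 and 0.0540). Fitted on each suture and age alone, both coronal calls were lost (-4.65, adjusted p = 0.156, at E16.5 and -3.04, adjusted p = 0.130, at E18.5). With the second coronal libraries the values were -3.55 and -5.11 (adjusted p = 0.00428 and 9.77e-05), and the coronal frontal OF at E16.5 was also called (-2.86 in place of -1.88, adjusted p = 0.0285).

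The osteoblast markers given above moved in the same direction as Dkk1, Frzb and Wif1 in every pair, with an SM to OF ratio of their summed CPM between 0.00652 and 0.0804 over the 12 comparisons. Their defining members Ibsp and Dmp1 were at 0 in 2 and 18 of the 100 libraries. The summed CPM of the 9 proliferation markers was also mostly higher in OF, with SM higher in 11 of 60 pairs, all of them coronal, and ratios between 0.407 and 1.35. The part of either list in the differences of these members was not tested.

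Sfrp2 was the most abundant member and was higher in SM in all 12 comparisons and in 58 of 60 embryo pairs, by 1.79-fold to 12.97-fold. Its level varied widely among the sutures, which came from different embryos and partly different litters, so that suture and embryo cannot be told apart. Total counts were also higher in coronal libraries, at least 20133332 against at most 18450955 in the other sutures. Sagittal SM had 3260, 3408, 3998, 3774 and 3034 CPM at E16.5, whereas coronal SM of the same age had 166, 161, 73.0, 86.4 and 113 CPM. The largest difference was in the lambdoid suture at E16.5, where SM had 1471, 1658, 1690, 1841 and 1577 CPM and the parietal OF 133, 41.9, 103, 204 and 214 CPM (log2 difference 3.70, SE 0.27, adjusted p = 4.91e-17). In the smallest, coronal SM had 138, 194, 116, 76.7 and 94.3 CPM and the coronal parietal OF 63.0, 34.8, 64.0, 81.2 and 94.5 CPM at E18.5 (0.84, SE 0.25, adjusted p = 0.0112). In that comparison 2 of 5 embryos had more Sfrp2 in the OF, and the call was lost without replicate 1 (0.81, adjusted p = 0.0574) or 2 (0.53, adjusted p = 0.0919).

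Dkk3 was higher in SM in all 12 comparisons and in 60 of 60 embryo pairs, by 1.40-fold to 3.01-fold, with no overlap in 9 of the comparisons. The sagittal suture at E18.5 had the largest difference, with 449, 556, 471, 503 and 572 CPM in SM and 205, 156, 167, 152 and 170 CPM in the parietal OF (log2 difference 1.59, SE 0.12, adjusted p = 5.80e-17). Among the first libraries, coronal SM at E18.5 had the highest level, with 709, 659, 745, 712 and 640 CPM. It did not overlap with the group next in mean, sagittal SM at E18.5, although 1 library of coronal SM at E16.5 reached 686 CPM. The second coronal libraries had less Dkk3 than the first in every sample. In them, coronal SM of embryos 1, 3 and 4 at E18.5 had 598, 550 and 535 CPM, overlapping with sagittal SM at E18.5. The coronal fronts at E18.5 were also high, at 386, 564, 546, 533 and 453 CPM in the frontal OF. The difference between coronal SM and that front was the smallest (0.49, SE 0.12, adjusted p = 0.00482). Without replicate 1 it missed the threshold (0.41, adjusted p = 0.0652), as it did in a fit without the embryo as a replicate block (0.48, adjusted p = 0.0557). The call against the coronal frontal OF at E16.5 (0.53) was lost in a fit of that suture and age alone (0.50, adjusted p = 0.0880).

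**Figure D3:**
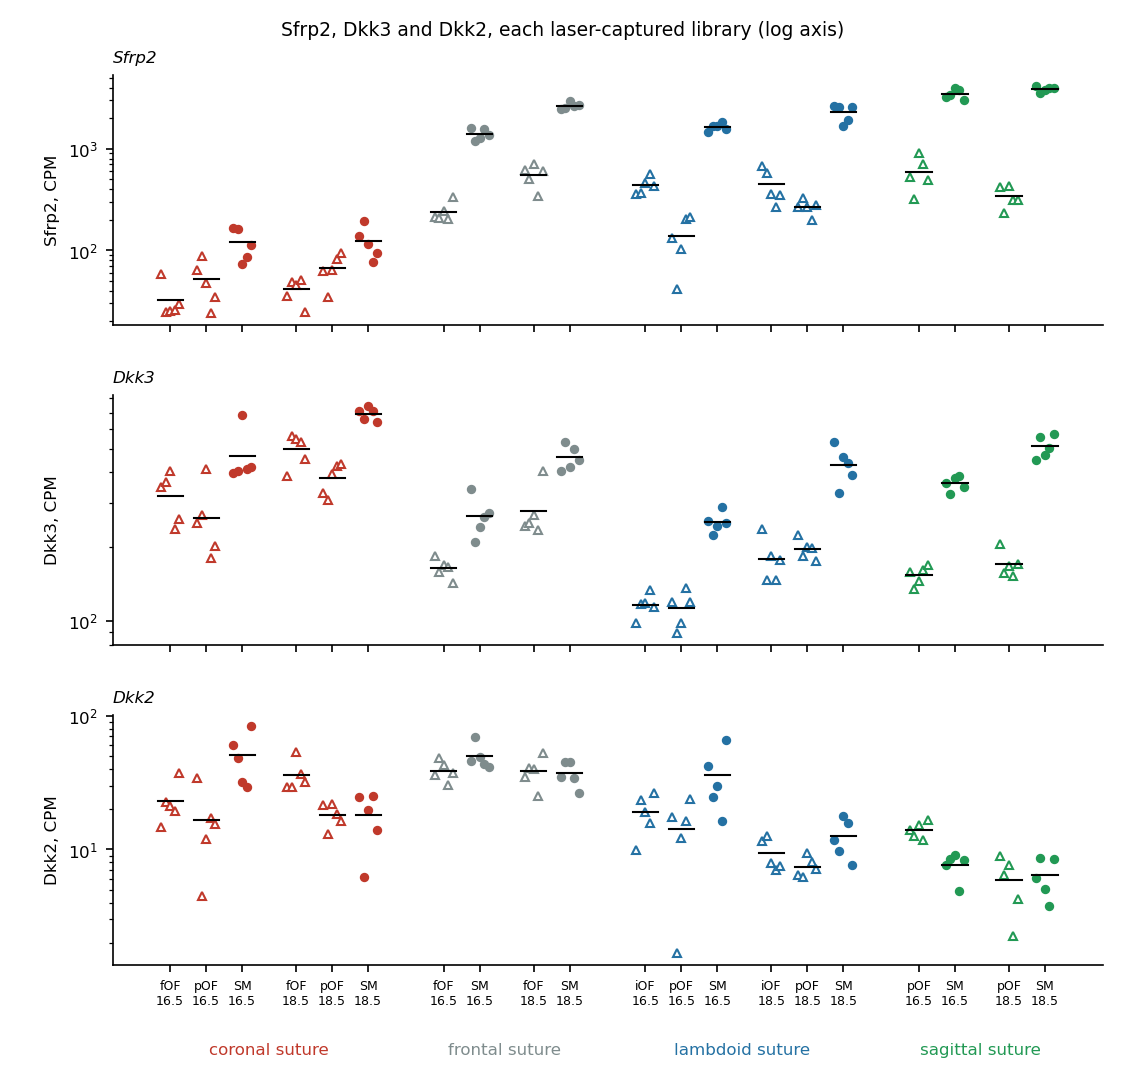
Levels of Sfrp2, Dkk3 and Dkk2 (CPM, log axis) in each of the 100 first libraries, by suture, age and region, with SM as filled circles, OF as open triangles and a bar at the group mean. Sfrp2 in coronal SM lies below 200 CPM while the SM libraries of the other sutures range from 1187 to 4160 CPM, Dkk3 is higher in SM in all sutures, and Dkk2 in coronal SM falls from E16.5 to E18.5.

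Like Sfrp2, the summed markers of several cell types were lower in coronal SM than in the SM of the other sutures. The summed CPM of the ectocranial mesenchyme markers was 387 to 885 in coronal SM (median 586) and 1822 to 4146 in the other SM libraries (median 2672). The dura mater markers (21.7 to 89.4 against 106 to 356 CPM) and the mast cell markers (0 to 29.2 against 59.9 to 469 CPM) did not overlap either. The chondrocyte (medians of 703 and 1575 CPM) and hypodermis markers (16.7 and 83.7 CPM) were lower with overlap. The hypodermis markers were also low in sagittal SM (median 18.7 CPM, 8.43 to 34.5 CPM), the SM with the highest Sfrp2, so they did not follow Sfrp2 there. The periosteal markers were higher in coronal SM instead, with medians of 8092 and 4603 CPM, as were the suture mesenchyme and proliferation markers. The part of these cell types in the difference of Sfrp2 was not tested.

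Sostdc1 and Dkk2 differed between SM and OF in a minority of comparisons. Sostdc1, which also acts on Bmp signals, was higher in SM in 46 of 60 embryo pairs and was called in 3 comparisons, coronal SM against the frontal OF (log2 difference 2.27, SE 0.65, adjusted p = 0.00654) and the parietal OF (3.03-fold, adjusted p = 0.0408) at E16.5 and sagittal SM at E18.5 (1.53, SE 0.57, adjusted p = 0.0386). In the first of these, SM had 0.353, 5.35, 3.45, 4.11 and 12.5 CPM and the frontal OF 0.115, 0.870, 0, 4.32 and 0.585 CPM, and the ranges overlapped. The difference was 0.84 with the second coronal libraries (adjusted p = 0.255), 1.78 without replicate 3 (adjusted p = 0.0516) and 1.71 without replicate 5 (adjusted p = 0.0730). The coronal parietal call was lost without replicate 2, 4 or 5 and the sagittal call without replicate 1, 2, 4 or 5, so that no call of Sostdc1 remained without replicate 5. Both coronal calls were also lost when the suture and age were fitted alone (adjusted p = 0.483 and 0.650). Against the coronal parietal OF at E18.5 the difference was -1.07 (adjusted p = 0.213), and with the second coronal libraries -1.48, a call in the other direction (adjusted p = 0.0164).

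Dkk2, an Lrp ligand like Dkk1, was higher in SM than in the coronal frontal OF (1.05, SE 0.33, adjusted p = 0.0116), the coronal parietal OF (1.64, SE 0.34, adjusted p = 0.000113) and the lambdoid parietal OF (1.32, SE 0.34, adjusted p = 0.00213) at E16.5. At E18.5 it was lower in coronal SM than in the frontal OF. In that comparison SM had 24.5, 6.25, 19.8, 25.3 and 14.01 CPM and the OF 29.4, 29.4, 53.7, 36.6 and 31.7 CPM, without overlap (-1.10, SE 0.33, adjusted p = 0.0447). The E18.5 call was lost without replicate 2, 3, 4 or 5 (adjusted p from 0.0586 to 0.212), with the second coronal libraries (-0.79, adjusted p = 0.176) and without the replicate block (-1.01, adjusted p = 0.0893). The coronal frontal call at E16.5 was lost without replicate 1 (0.90, adjusted p = 0.0570) and in a fit of that suture and age alone (1.03, adjusted p = 0.228). In the sagittal suture at E16.5 the OF was higher in 5 of 5 embryos, 13.9, 12.6, 15.3, 11.7 and 16.47 CPM against 7.70, 8.43, 9.08, 4.91 and 8.38 CPM in SM, but the adjusted p was 0.0559.

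Sost, which in adult bone is made by osteocytes, had 133 counts over the 100 libraries, 128 of them in OF libraries. It was detected in 18 of 60 OF libraries and in 1 of 40 SM libraries, coronal SM of embryo 3 at E18.5, with 5 counts (0.199 CPM). The frontal OF of the frontal suture at E18.5 had 0.683, 0, 0.491, 2.54 and 0.313 CPM and the coronal parietal OF at E18.5 had 1.46, 0, 0.729, 0.153 and 0 CPM. These 2 groups held the highest libraries, and no test was run on Sost because it did not pass the filter.

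The differences between SM and OF varied among the 12 comparisons, which differ in suture, age and front, for 8 of the 9 members, where this spread was called for 23.1% of all genes, and Notum missed the threshold (adjusted p = 0.0693). The coronal suture was set against the other sutures by comparing the mean of its 4 differences with the mean of the other 8. The call was made for 5 of 9 members, against 19.8% of all genes. Sfrp2 differed between SM and OF by 1.38 on average in the coronal suture and by 2.77 elsewhere (log2 difference of the differences -1.39, SE 0.18, adjusted p = 2.83e-08). Dkk3 differed by 0.69 and 1.12 (-0.43, SE 0.08, adjusted p = 0.000111), so that both members of the SM group were less raised in coronal SM. Wif1 differed by -1.41 and -2.23 (0.82, SE 0.15, adjusted p = 2.90e-05), a smaller mean difference in the coronal suture. The ranges overlapped, with -2.28 to -0.85 for the 4 coronal values and -2.89 to -1.69 for the other 8. The coronal value of -2.28, against the parietal OF at E18.5, was near the mean of the other sutures. Sfrp1 differed by -1.39 and -0.24 (-1.15, SE 0.18, adjusted p = 2.86e-06), a larger mean difference in the coronal suture. Here too the ranges overlapped, with -2.08 to -0.84 for the coronal values and -1.13 to 0.42 for the others, of which both sagittal ones were called.

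Frzb differed by -5.92 and -3.56 (-2.36, SE 0.56, adjusted p = 0.00138), but with the second coronal libraries the value was -1.16 and the call was lost (adjusted p = 0.114). Dkk1 differed by -5.24 and -5.16 in the first libraries (-0.09, adjusted p = 0.908), whereas the second coronal libraries gave 1.92 (adjusted p = 8.69e-05). Dkk2 (0.02, adjusted p = 0.988), Sostdc1 (0.22, adjusted p = 0.776) and Notum (-1.07, adjusted p = 0.240) missed the threshold in the first libraries. For Notum the second libraries gave -2.17 (adjusted p = 0.0265).

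The levels behind these values differed between coronal and other SM. Wif1 had a mean of 24.98 ± 12.01 CPM in coronal SM (SD, n = 10) and 9.70 ± 3.68 CPM in other SM (SD, n = 30). By age, coronal SM had 33.96 ± 8.72 CPM at E16.5 and 15.99 ± 6.84 CPM at E18.5 (SD, n = 5). Its E18.5 libraries overlapped with other SM (4.00 to 18.9 CPM), and lambdoid SM at E18.5 had 13.65 ± 1.55 CPM. Sfrp2 had 122 ± 41.5 and 2560 ± 953 CPM, and its coronal OF libraries (23.95 to 94.5 CPM) were also mostly below those of the other sutures (41.9 to 903 CPM). Dkk3 had 579 ± 149 CPM in coronal SM and 380 ± 108 CPM in other SM. In the second libraries, coronal SM had less Dkk3, 167 to 356 CPM at E16.5 and 535 to 598 CPM at E18.5. Beside this, the osteoblast markers summed to 147 to 1318 CPM in coronal SM (median 480) and to 10.5 to 483 CPM in other SM (median 69.7), and the suture mesenchyme markers to medians of 2909 and 969 CPM. Levels were not tested between sutures.

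E18.5 was compared with E16.5 in each of the 10 regions, without a block since the embryos differ. Dkk3 was higher at E18.5 in all 10 regions, called in 8, and Sfrp1 and Dkk1 were lower in all 10, called in 5 and 3. Over 90 tests, 11 (12.2%) were called higher and 14 (15.6%) lower at E18.5, where 4.43% and 4.14% of all tests over all genes were called in these directions. The share of all genes called was 20.6% to 27.1% in the coronal regions and 0.288% to 4.34% in the other regions. Many of the member calls were in the coronal regions, to which the pooled shares are not matched. Notum was called in none of its 10 comparisons. Cell type markers also moved with age. In SM, the median summed CPM of the proliferation markers was 1206 at E16.5 and 701 at E18.5, that of the osteoblast markers 75.2 and 155, of the macrophage markers 179 and 276 and of the erythroid markers 830 and 324. Their part in the age differences of the members was not tested.

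**Figure D4:**
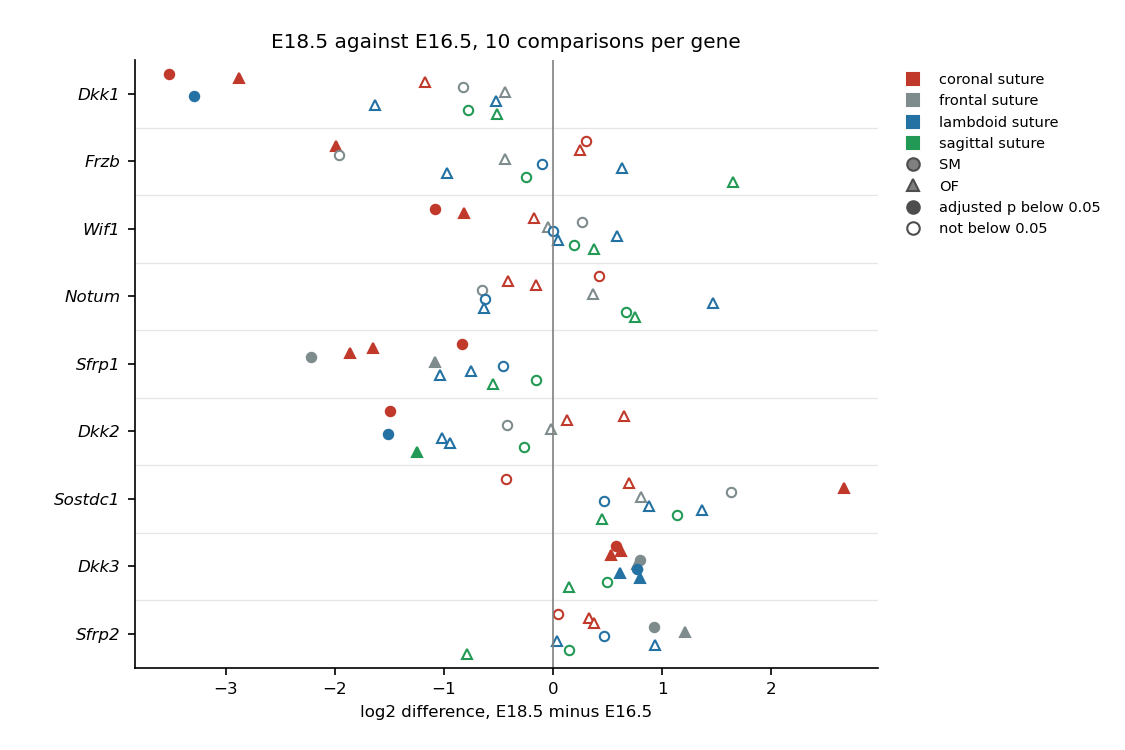
Fitted log2 difference between the ages (horizontal axis, E18.5 minus E16.5) for each of the 9 tested members (vertical axis), 1 symbol per region coloured by suture, as a circle for SM and a triangle for OF, filled where the adjusted p was below 0.05. All symbols of Dkk3 lie right of 0 and all of Dkk1 and Sfrp1 left of 0, while Wif1 and Frzb lie on both sides.

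Dkk3 rose by 0.53 to 0.80 on the log2 scale in the 8 called regions, all but both sagittal ones. In lambdoid SM, the libraries had 255, 222, 243, 290 and 250 CPM at E16.5 and 530, 330, 461, 438 and 390 CPM at E18.5, without overlap (0.77, SE 0.15, adjusted p = 0.000478). Sagittal SM had 361 ± 24.9 and 510 ± 53.1 CPM (SD, n = 5 embryos per age), also without overlap, and missed the threshold (0.50, edgeR adjusted p = 0.0935), and the sagittal OF differed by 0.15. The call in the lambdoid interparietal OF (0.61, adjusted p = 0.0444) was lost when any 1 replicate was left out. The call in the coronal parietal OF (0.53, adjusted p = 0.00821) was lost without replicate 4 (0.33, adjusted p = 0.182) or 5 (0.35, adjusted p = 0.133), and that in the frontal OF of the frontal suture (0.77, adjusted p = 0.00063) without replicate 5 (0.56, adjusted p = 0.103).

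Sfrp1 fell most in frontal SM, from 32.1, 142, 67.9, 83.0 and 52.1 CPM at E16.5 to 20.5, 10.8, 13.6, 17.2 and 18.6 CPM at E18.5, without overlap (-2.22, SE 0.31, adjusted p = 6.23e-07). It fell by 1.86 on the log2 scale in the coronal parietal OF (SE 0.31, adjusted p = 3.85e-06) and by 1.65 in the coronal frontal OF (SE 0.30, adjusted p = 2.30e-05). The calls in the frontal OF of the frontal suture (-1.09, adjusted p = 0.022) and in coronal SM (-0.83, adjusted p = 0.0315) were less stable. The former was lost without replicate 2 (-0.77), 3 (-0.93) or 4 (-0.91). The latter was lost without replicate 1 (-0.48) or 3 (-0.71). Separately, it was lost under scaling to total counts (-0.45, adjusted p = 0.244) and with the second coronal libraries (-0.83, adjusted p = 0.0735).

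Dkk1 was called lower at E18.5 in 3 regions. The coronal frontal OF had 106, 54.4, 21.5, 34.1 and 120 CPM at E16.5 and 10.3, 15.01, 3.59, 13.8 and 2.87 CPM at E18.5, without overlap (-2.88, SE 0.50, adjusted p = 8.49e-06). Lambdoid SM had 3.61, 9.18, 5.90, 2.70 and 0.400 CPM and then 0.469, 0.122, 0.214, 0.696 and 0.688 CPM, with overlap (-3.29, SE 0.74, adjusted p = 0.00271), and the call was lost without replicate 2 (-2.60, adjusted p = 0.0654). The value in coronal SM (-3.52, SE 0.66, adjusted p = 2.42e-05) rests on the first libraries, with -0.33 in the second (adjusted p = 0.778).

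Dkk2 fell in coronal SM, from 60.5, 48.0, 32.2, 29.5 and 83.6 CPM to the E18.5 values given above, without overlap (-1.50, SE 0.35, adjusted p = 0.000578). It also fell in lambdoid SM (-1.51, adjusted p = 0.00444, lost without replicate 1 at -1.41 or 5 at -1.03) and in the sagittal OF (-1.25, adjusted p = 0.0459, lost without replicate 1, 3, 4 or 5). Wif1 fell in coronal SM to 16.2, 27.6, 9.97, 12.9 and 13.3 CPM, overlapping with E16.5 (-1.09, SE 0.23, adjusted p = 0.000185) and in the coronal frontal OF (-0.81, SE 0.23, adjusted p = 0.00531). In the latter region scaling to total counts gave -0.36 (adjusted p = 0.216), where the choice between total counts and TMM moved all genes by 0.47.

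Sfrp2 rose in the frontal suture, from 212, 207, 246, 203 and 336 CPM to 623, 499, 716, 341 and 606 CPM in its OF (1.21, SE 0.27, adjusted p = 0.00295) and from 1401 ± 185 to 2656 ± 187 CPM in its SM (0.92, edgeR adjusted p = 0.0402, SD, n = 5). The SM call was lost when any 1 replicate was left out (adjusted p from 0.0624 to 0.328). Sostdc1 rose in the coronal parietal OF, from 0.759, 0.368, 1.98, 0.138 and 2.76 CPM to 3.87, 5.29, 10.8, 8.90 and 8.96 CPM, without overlap (2.67, SE 0.60, adjusted p = 0.000609). Frzb fell in the coronal frontal OF (-1.99, SE 0.61, adjusted p = 0.0105), which was lost without replicate 3 (-1.12, adjusted p = 0.223) and with the second coronal libraries (-1.14, adjusted p = 0.181).

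Fitted on the libraries of 1 region alone, 10 of the 25 age calls were lost (adjusted p from 0.0521 to 0.257). They were those of Dkk3 in the 3 coronal regions, of Dkk1, Sfrp1 and Wif1 in coronal SM, of Wif1 and Frzb in the coronal frontal OF, of Sostdc1 in the coronal parietal OF and of Sfrp1 in the frontal OF of the frontal suture. With voom, those of Dkk1 in coronal and lambdoid SM, of Dkk2 in lambdoid SM and the sagittal OF and of Dkk3 in the lambdoid interparietal OF were lost (adjusted p from 0.114 to 0.621).

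Whether the difference between SM and OF changed with age was tested in 6 comparisons, with 3 calls among 54 tests of members, against 1.88% of all tests. All 3 were in the coronal suture, where 5.91% of all genes were called against the frontal OF and 4.96% against the parietal OF, while at most 0.167% were called in the other 4 comparisons. Dkk2 changed in the coronal suture relative to both fronts, by -2.16 against the frontal OF (SE 0.46, adjusted p = 0.00254) and by -1.75 against the parietal OF (SE 0.47, adjusted p = 0.0191), as its level fell in SM while the frontal OF had a mean of 23.0 CPM at E16.5 and 36.2 CPM at E18.5. The parietal value was lost without replicate 2 (-1.18, adjusted p = 0.0618), 3 (adjusted p = 0.0639) or 5 (adjusted p = 0.122). Wif1 changed by -0.94 against the coronal parietal OF (SE 0.29, adjusted p = 0.0444), which was lost without replicate 1, 4 or 5, with the second libraries (adjusted p = 0.0534) and without the replicate block (adjusted p = 0.0666). For Sostdc1 against the coronal parietal OF the change was -2.67 (adjusted p = 0.0514), and with the second libraries it was called at -3.10 (adjusted p = 0.00578).

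The fronts on either side of a suture were compared in 4 comparisons, with 5 calls among 36 tests of members, against 4.06% of all tests. At E18.5 the coronal frontal OF had less Dkk1 than the parietal OF of the same embryos, 10.3, 15.01, 3.59, 13.8 and 2.87 CPM against 55.9, 47.7, 17.9, 36.6 and 12.4 CPM (-1.96, SE 0.38, adjusted p = 0.000288), a call that voom did not make (-1.93, adjusted p = 0.144). It also had less Wif1 (-1.12, SE 0.21, adjusted p = 0.000161) and Sostdc1 (-2.27, SE 0.59, adjusted p = 0.00976) and more Dkk3 (0.39, SE 0.12, adjusted p = 0.0263). Sostdc1 was lost without replicate 1 (-2.23, adjusted p = 0.0519) or 5 (-1.66, adjusted p = 0.141), and Dkk3 without replicate 2 or 3, with the second libraries and without the replicate block (adjusted p = 0.122). Osteoblast markers summed to 4356 ± 2046 CPM in the frontal OF and to 11491 ± 3764 CPM in the parietal OF (SD, n = 5), and their part in these differences was not tested. In the lambdoid suture at E16.5, the interparietal OF had 360, 363, 461, 564 and 431 CPM of Sfrp2, above the 41.9 to 214 CPM of the parietal OF (1.74, SE 0.25, adjusted p = 1.08e-05).

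Other genes of the pathway were described from 4 lists. Of 9 genes listed as other Wnt inhibitors, 7 passed the filter, with 29 of 84 tests higher in SM and 21 higher in OF. Over all genes, 8.15% and 10.8% of the tests were called in these directions. Cer1, a secreted inhibitor that binds Bmp and Nodal proteins, was lower in SM in 12 of 12 comparisons (mean log2 difference -5.26). Whether it acts on Wnt proteins here was not tested. Apcdd1, a membrane-bound Wnt inhibitor, was lower in SM in 9 (-0.90). Shisa2 and Shisa3, which hold back the maturation of Frizzled receptors, were higher in SM in 12 (2.10) and 9 (1.77). Trabd2b, a protease that cuts Wnts, was higher at E18.5 in 3 of 10 regions, where 4.43% of the tests over all genes were called higher and 4.14% lower.

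Of 18 receptors and co-receptors, 17 passed the filter, with 55 of 204 tests higher in SM and 57 higher in OF. Over all genes, 8.15% of the tests were called higher in SM and 10.8% higher in OF. Lrp4, which presents Sost to Wnt receptors, was lower in SM in 12 of 12 comparisons (mean -0.89), and Kremen1, a receptor for Dkk1, in 11 (-0.63). Fzd2 and Fzd1 were higher in SM in 11 each (0.72 and 0.67). Fzd5 and Fzd3 were each lower at E18.5 in 4 of 10 regions, where 4.14% of the tests over all genes were called lower. Of 9 feedback and target genes, 8 were tested, with 15 of 96 tests higher in SM and 39 higher in OF. The shares over all genes were again 8.15% and 10.8%. The transcription factor Tcf7 was lower in SM in all 12 (-3.80), the ubiquitin ligases Znrf3 and Rnf43, which remove Frizzled receptors from the surface, in 12 (-0.82) and 10 (-3.25), and the R-spondin receptor Lgr5 was higher in SM in 10 (3.57). Axin2, a common readout of β-catenin signalling that was picked out after its values were seen, was called in no SM and OF comparison, and its differences lay between -0.57 and 0.59. Lef1 was lower at E18.5 in 5 of 10 regions, against the same 4.14% over all genes.

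Of 23 Wnt ligands and R-spondins, 15 passed the filter, with 31 of 180 tests higher in SM and 40 higher in OF. Over all genes, the shares called were 8.15% higher in SM and 10.8% higher in OF. Wnt10a, Wnt10b and Wnt7b were each lower in SM in 11 of 12 comparisons (mean -4.68, -3.12 and -2.65), and Rspo3, which enhances Wnt signals, was higher in SM in 11 (2.51).

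Over the 20 group means of log2 CPM, the genes with the highest Pearson correlation to each member were, as a description over groups that share litters and embryos, Me2, Lpar3 and Sgms2 for Wif1 (r = 0.97 to 0.98), Epb41l2, Rab11fip4 and Spock1 for Dkk1 (0.96 to 0.97) and B4galnt3, Galnt3 and Hid1 for Frzb (0.92 to 0.93). Sgms2 is also in the osteoblast marker list. For Sfrp2 they were Ch25h, Meg3 and Kcnn2 (all 0.97), for Dkk3 Ski, Samd4 and Atp8b1 (0.94 to 0.97), for Sostdc1 Dpep1, Prdm9 and Gm37850 (0.88 to 0.91), for Dkk2 Ahr, Aldh1a2 and Adamts5 (0.87 to 0.91), for Sfrp1 Car2, Lpar2 and Gpc6 (0.83 to 0.86) and for Notum Eno1, Slc25a1 and Pkm (0.92 to 0.94). Among the members themselves, Dkk1 varied with Frzb (r = 0.83) and Wif1 (0.82), and opposite to Dkk3 (-0.78), and Wif1 opposite to Sfrp2 (-0.77).

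In the single-cell data, more than 800 detected genes and a depth close to the library median were required of each cell. At E16.5, library 1 kept 466 cells with a median of 2501 UMIs and library 2 kept 337 with 2121. At E18.5 the numbers were 2412 cells with 18476 UMIs and 1577 cells with 7131 UMIs. The ages differ in chemistry and depth and were not compared. The libraries of one age shared 1 barcode at E16.5 and 5 at E18.5, of which 0 and 4 were among the cells kept. Cells were clustered by age without the 10 members, and clusters were named from marker genes. Levels are CPM of the summed UMIs of a cluster in each library, and with 2 pooled libraries per age they were not tested. Their 95% exact Poisson intervals cover counting error only.

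At E18.5, Dkk1, Frzb, Notum, Sost and Wif1 were highest in the osteoblast-like cluster (117 and 347 cells). Dkk1 reached 96.1 CPM (interval 85.1 to 108) and 150 CPM (136 to 164) in libraries 1 and 2, against at most 23.7 CPM in any other cluster of either library. Wif1 reached 289 and 445 CPM there, 304 and 384 CPM in Mmp13 osteogenic-like cells, 165 and 174 CPM in periosteal-like cells and 121 and 113 CPM in suture mesenchyme-like cells, against 31.2 and 29.7 CPM in macrophage-like cells. In library 1 the Mmp13 osteogenic-like level of Wif1 was thus above the osteoblast-like level, while over both libraries together the osteoblast-like cluster was highest (erythroid-like cells of library 1, of which there were 2, are left out). Frzb had 32.0 and 41.7 CPM and Notum 14.5 and 20.9 CPM in osteoblast-like cells, and elsewhere at most 14.9 CPM.

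Sost, which was scarce in the captured regions, had 122 of its 193 UMIs of library 1 and 197 of its 232 UMIs of library 2 in osteoblast-like cells (42.0 and 66.3 CPM). A further 35 UMIs of library 1 lay in the cluster led by Slc47a1, which had 0 in library 2, and 12 of library 2 in pericyte-like cells (44.1 CPM). Over all clusters, Sost UMIs were found in 55 and 63 cells. When either library was clustered alone, these 5 members were again highest in an osteoblast-like cluster.

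Sfrp2 was highest in ectocranial mesenchyme-like cells (395 and 150 cells), with 3932 CPM (3895 to 3970) and 3760 CPM (3657 to 3864), followed by suture mesenchyme-like cells with 689 and 495 CPM. Macrophage-like cells had 88.0 and 73.1 CPM and osteoblast-like cells 98.1 and 74.4 CPM. The antisense gene Gm26771 was among the 10 leading genes of the ectocranial mesenchyme-like cluster. Gm26771 was not among the genes left out of the clustering, so this cluster may not have been formed independently of the Sfrp2 locus. Dkk3 was spread more evenly, from 246 and 278 CPM in suture mesenchyme-like cells, 211 and 194 CPM in periosteal-like cells and 184 and 231 CPM in ectocranial mesenchyme-like cells to 27.9 and 47.1 CPM in osteoblast-like cells. With cells of at least 500 or 1000 genes, with 100 neighbours and with library 1 clustered alone, no suture mesenchyme-like cluster was formed, and Dkk3 was highest in periosteal-like cells. Sostdc1 was highest in Mmp13 osteogenic-like cells (62.2 and 54.8 CPM) and ectocranial mesenchyme-like cells (49.2 and 56.1 CPM), whose intervals overlapped in library 2, against 3.4 and 1.3 CPM in osteoblast-like cells. Sfrp1 (225 and 294 CPM) and Dkk2 (70.9 and 85.2 CPM) were highest in the cluster led by Slc47a1 (101 and 33 cells), which was left without a cell type name. Of its 10 leading genes, Igfbp6 and Tmeff2 are in the hypodermis list, so that the naming rule alone would have called it hypodermis-like, while the others, such as Slc47a1 and Slc4a10, are in no list used here. The Sfrp1 level of the Slc47a1-led cluster moved with the clustering, from 232 CPM over both libraries to 141 CPM at a resolution of 1.2, 74.7 CPM with 100 neighbours and 121 CPM with library 1 clustered alone, and with 100 neighbours Dkk2 was highest in chondrocyte-like cells. Clustered alone, library 2 had both highest in a dura mater-like cluster, and the highest class of Sostdc1 was different in each library. At a resolution of 1.2 Sostdc1 was highest in suture mesenchyme-like cells, with 37.6 CPM in Mmp13 osteogenic-like cells in place of 60.5 CPM over both libraries, and with cells of at least 1000 genes in erythroid-like cells.

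**Figure D5:**
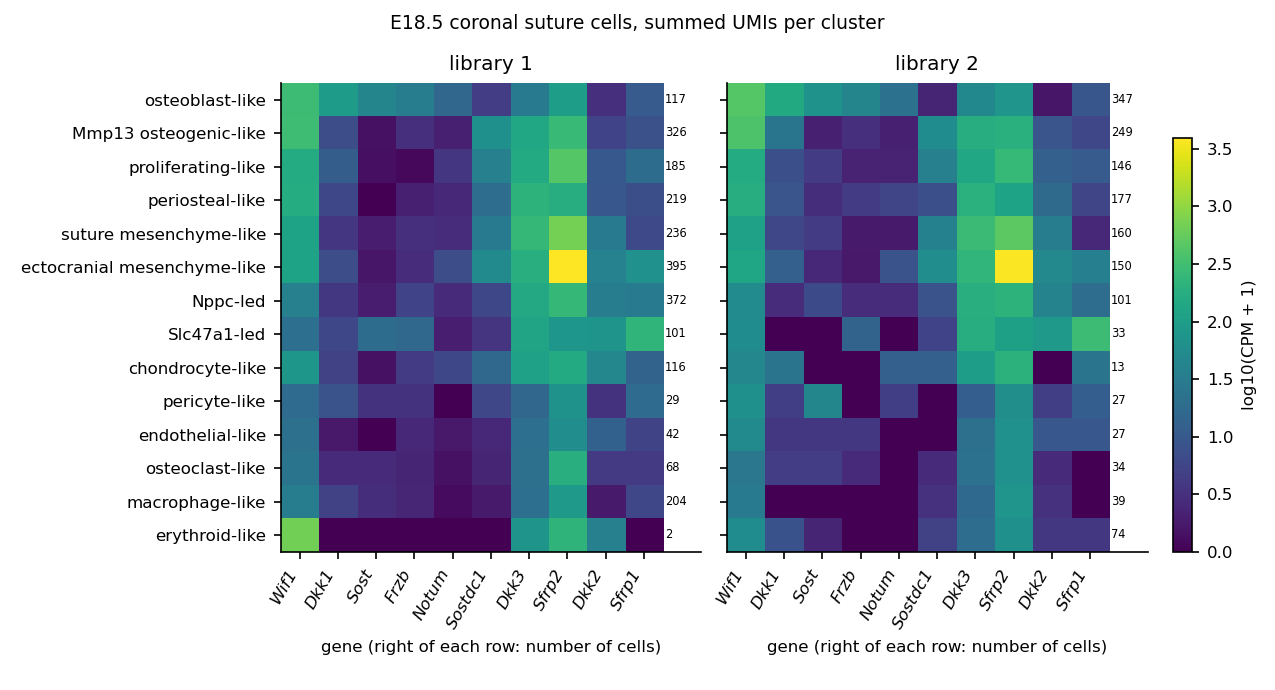
Level of each member (columns) in 14 clusters of coronal suture cells at E18.5 (rows) in libraries 1 and 2, coloured by log10 of CPM plus 1, with the number of cells at the right. The osteoblast-like row is brightest for Dkk1, Sost, Frzb and Notum, the ectocranial mesenchyme-like row for Sfrp2, and the row led by Slc47a1 for Sfrp1.

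At E16.5 the counts were few. The clusters were named osteoblast-, ectocranial mesenchyme-, hypodermis-, macrophage-, osteoclast-, endothelial- and chondrocyte-like. None was suture mesenchyme-like, periosteal-like or Mmp13 osteogenic-like, so the members, Dkk3 among them, could not be ranked in such cells at this age. Sfrp2 was again highest in ectocranial mesenchyme-like cells (3881 and 2862 CPM from 1291 and 407 UMIs), Wif1 (135 and 118 CPM) and Dkk1 (56.7 and 48.7 CPM, 16 and 14 UMIs) in osteoblast-like cells, and Dkk3 in ectocranial mesenchyme-like cells (147 and 134 CPM). Dkk2 had 174 CPM in the hypodermis-like cells of library 1 (53 UMIs), and library 2 held 2 such cells. Sost had 0 UMIs in both libraries, where 3 UMIs would stand at 2.17 and 3.57 CPM over all cells, and Frzb and Notum had at most 7 UMIs in a library. Over both libraries, Dkk1 in osteoblast-like cells was 52.7 CPM, but 184 CPM with cells of at least 500 genes, 186 CPM at a resolution of 1.2 and 34.0 CPM with cells of at least 1000 genes, and Wif1 was 126, 229, 209 and 106 CPM in the same order. With 100 neighbours no osteoblast-like cluster was formed and both were highest in unnamed clusters. Clustered alone, neither library of E16.5 gave a named cluster for Wif1 or Dkk1, and library 2 gave none for Sfrp2, Dkk3, Dkk2 or Sostdc1.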

How the data were processed

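Laser-captured tissue of wild-type embryos was amplified (Ovation RNA-Seq V2), made into Nextera XT libraries and sequenced on an Illumina HiSeq. The authors trimmed reads with cutadapt, aligned them to mm10 with STAR 2.5.3a and counted them per gene without strand with featureCounts 1.6.4 on GENCODE vM22. The deposited files hold these raw counts per gene, which are not normalized. The deposited single-cell matrices hold UMI counts that the authors made with Cell Ranger on mm10 (the submitters' processing notes also list Seurat), as 10x libraries of different chemistry at the 2 ages. A table of log2 ratios between groups computed by the authors was not used.

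The members and gene lists were chosen with earlier results of these data known. All 10 members are named. Of each other pathway list, up to 4 genes called in one direction in the most SM and OF comparisons and up to 3 in the most age comparisons are named (at least 3 calls), and for each tested member the 3 genes of highest correlation over 20 group means. Gene IDs were paired with symbols for 55394 of 55487 IDs, and all 69 pathway list genes were found.

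From the 100 first libraries, genes with at least 1 CPM in more than 10% of libraries were scaled by TMM and fitted with edgeR 4.0.16 (R 4.3.3) by the quasi-likelihood method, two-sided, with Benjamini-Hochberg adjustment over 19768 genes within each comparison and a threshold of 0.05. Comparisons between regions used the embryo as a block, and those between ages used group means. Same-numbered samples shared a litter label. SM and OF deviations correlated with a median r of 0.0505 over 60 pairs of one label and of -0.0121 over 240 pairs of different labels. Between ages, the p-values rest on the spread between embryos within groups. Between regions, they rest on how the region difference varied from embryo to embryo. Both spreads were estimated in fits of all 100 first libraries, not from the compared groups alone. The labels of embryos in a group often began alike, as for all of the sagittal suture at E16.5, so part of the spread may lie within litters. Second libraries existed for 18 coronal samples and served as an alternative, and 16 libraries of complete sutures at E18.5 entered no comparison. No 2 files held identical values.

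Cells with more than 800 genes and within 3 median absolute deviations were clustered by age with Seurat 5.3.0 (anchors between libraries, 2000 variable genes without the members, resolution 0.8, 50 neighbours). Clusters were named where at least 3 markers of a list were detected and that list held more of the 10 leading genes than all other lists together. The Nppc-led cluster had no such list, and the Slc47a1-led cluster, hypodermis-like by this rule, was left unnamed after its leading genes were seen. No doublet caller was run. Exact Poisson intervals are two-sided at the 95% level. For Sost in the E16.5 cells, the count of 0 is given beside the level that 3 counts would have. Other counts of 0 are given without such a level.

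Results were recomputed with voom (limma 3.58.1) and with DESeq2 1.42.0, with other size factors and filters, without the block, in separate fits, with the second libraries, with each replicate left out and with other cell filters and cluster settings. "Without replicate" means that this number was left out of every group.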

Additional observations from a re-analysis of the deposited data

Results flagged for a closer look

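In 19 of 189 gene and group pairs with 5 libraries (10.1%), 1 library stood apart from the other 4 by Dixon's 95% limit. Chance flags about 1 in 20 groups, and groups near 0 counts are flagged more easily. The highest library was the one apart in each. For Sost these were the frontal OF of the frontal suture at E16.5 (0.650 CPM) and E18.5 (2.54 CPM), the coronal frontal OF at E16.5 (0.0502 CPM), coronal SM at E18.5 (0.199 CPM), the lambdoid parietal OF at E18.5 (0.193 CPM) and the sagittal parietal OF at E18.5 (0.193 CPM). For Dkk1 they were the coronal parietal OF at E16.5 (160 CPM) and the lambdoid parietal OF at E18.5 (50.2 CPM), and for Dkk2 frontal SM at E16.5 (69.3 CPM). For Dkk3 they were coronal SM at E16.5 (686 CPM) and the frontal OF of the frontal suture at E18.5 (406 CPM), the latter in replicate 5. For Frzb they were coronal SM at E16.5 (0.374 CPM), lambdoid SM at E18.5 (1.29 CPM) and the sagittal parietal OF at E18.5 (16.3 CPM), where replicate 2 was also apart for Wif1 (79.1 CPM). The others were Sostdc1 (4.32 CPM) and Sfrp2 (58.4 CPM) in the coronal frontal OF at E16.5, and Notum in coronal SM at E16.5 (0.299 CPM) and in the frontal OF of the frontal suture at E18.5 (1.37 CPM).

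The difference between SM and OF was itself different between ages or sutures in 8 tested cases, given in full with their adjusted p-values in the results. With age it moved in the coronal suture by -2.16 (Dkk2, frontal OF), -1.75 (Dkk2, parietal OF) and -0.94 (Wif1, parietal OF) on the log2 scale. Between the coronal and the other sutures it differed by -2.36 for Frzb, -1.39 for Sfrp2, -1.15 for Sfrp1, -0.43 for Dkk3 and 0.82 for Wif1. Osteoblast markers were higher in coronal SM (median summed CPM 480) than in other SM (69.7), and their part in these values was not tested.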

How the results depend on the processing

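Over all alternatives, 4230 member values were recomputed, of which 3976 stayed on their side of the threshold (134 of these, with no call, changed sign), 133 lost a call, 120 gained one and 1 reversed. The reversal was Dkk1 in the coronal suture less the others, 1.92 with the second coronal libraries in place of -0.09, with 2 members then called with a positive sign in place of 1. Calls of an age change in the SM and OF difference were 0 positive and 3 negative. They were 1 positive with DESeq2, total counts or voom, and 2 positive and 6 negative without a filter on low counts. Leaving out a replicate gave 0 to 1 positive and 1 to 3 negative calls. Of the OF comparisons, 2 calls were positive and 3 negative. Positive calls were 4 with DESeq2, voom, median-ratio size factors, no filter or separate fits per suture and age, and 1 with the second libraries or without the replicate block. Negative calls were 6 without a filter and 5 in separate fits. Dropping the replicate block changed the call of 8 values, 6 of them lost, among them Dkk3 between the coronal fronts (adjusted p = 0.122), and the blocked values are the ones given throughout.

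The class with the highest level in single cells was the same for 17 of 17 members and ages with the members kept in the clustering, for 12 with 100 neighbours, and for 8 to 12 when 1 library was left out. Scaling by total counts in place of TMM moved all genes by 0.01 to 0.29 between SM and OF and by -0.21 to 0.47 between ages on the log2 scale, and no called direction turned. Separate fits gave no mean, spread, coronal or age-change value, and DESeq2 gave no spread value. Few counts limit Sost, Notum and, in SM, Frzb and Dkk1, whose folds are imprecise. The causes of the differences between first and second coronal libraries were not tested.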

Other observations

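Libraries of complete sutures at E18.5, which the labels call normalization controls and which entered no comparison, held 4 libraries per suture. The labels give each of the 4 as replicate 1 and do not show whether they came from separate tissue, so their ranges may be those of repeat libraries. Their Sfrp2 ranged from 99.6 to 161 CPM in the coronal, 175 to 310 CPM in the lambdoid, 790 to 1124 CPM in the frontal and 1430 to 1885 CPM in the sagittal suture, without overlap between any of them. Wif1 ranged from 82.2 to 119 CPM in the coronal suture and from 15.4 to 51.8 CPM in the others. Sfrp1 was lowest in the coronal suture, at 26.9 to 32.0 CPM, and highest in the frontal suture, at 116 to 133 CPM. Dkk1 ranged from 29.3 to 54.6 CPM in the coronal and from 12.3 to 20.5 CPM in the sagittal suture.

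Sost was easier to detect there than in the captured regions. It ranged from 3.38 to 5.61 CPM in the coronal, 5.56 to 7.25 CPM in the lambdoid, 0.861 to 2.85 CPM in the frontal and 0.511 to 1.09 CPM in the sagittal suture, whereas captured libraries reached at most 2.54 CPM. Sostdc1 ranged from 14.3 to 18.8 CPM in the frontal suture and from 2.69 to 6.05 CPM in the lambdoid suture. Levels were not tested between complete sutures and captured regions, which were taken differently.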
